A study of Mus musculus with 13 samples.

Results

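The genes described here are 30 genes of cholesterol and fatty acid synthesis, with the regulators that control them, out of 25655 genes in each expression table of dermal fibroblasts from mice carrying the G234D allele of Fbn1. A list of pathway genes named them with no rule on measured values, and all 30 were found and passed the filter on low values in every comparison. The list, and the split of set 1 given below, were chosen with earlier results of these data known. By role they are 7 genes of the mevalonate arm (Acat2, Hmgcs1, Mvk, Pmvk, Mvd, Idi1 and Fdps), 3 genes from squalene to lanosterol (Fdft1, Sqle and Lss), 8 genes from lanosterol to cholesterol (Cyp51, Tm7sf2, Msmo1, Nsdhl, Hsd17b7, Ebp, Sc5d and Dhcr7), 5 genes of SREBP control (Srebf1, Srebf2, Scap, Insig1 and Insig2), the sterol carrier Stard4, and 6 fatty acid genes (Acly, Acaca, Fasn, Elovl6, Scd1 and Scd2). The series compared untreated primary cultures from the skin of newborn mice, 7 from animals homozygous for the G234D allele (M1 to M7) and 6 from wild-type animals (WT, W1 to W6). Set 1 held M1 to M4 and W1 to W4, and set 2 held M5 to M7 with W5 and W6. The titles number the animals, and set 1 splits on them into later animals (M3, M4, W3 and W4) and earlier animals (M1, M2, W1 and W2). W1 is numbered well before the other 3 earlier animals, so that its place among them is the least certain. Strain, sex, litter and passage are not stated, no Cre or driver is named, and each culture is titled with 1 animal.

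Cells build cholesterol from acetyl-CoA. The mevalonate arm makes isoprenoid diphosphates, squalene synthase commits them to sterols, and a set of oxidases, reductases and isomerases turns lanosterol into cholesterol. Transcription of these enzymes is driven by the SREBP factors, which Scap escorts out of the endoplasmic reticulum when membrane sterol is low and which the Insig proteins hold back when sterol is high. SREBP-2, from Srebf2, acts mainly on sterol genes and SREBP-1, from Srebf1, mainly on fatty acid genes, so that enzymes of a pathway often move together. In skin these lipids feed cell membranes and the permeability barrier.

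The values were TPM, a level scaled for gene length that sums to 1000000 in each culture. Library depth cannot be read from them. Between 11741 and 12042 genes reached 1 TPM in a culture. The 10 fibroblast markers (collagen I and III, Pdgfra, Pdgfrb, Dcn, Lum, Thy1, Vim and Fbln1) summed to 23297 to 34553 TPM, and each of the 10 reached 1 TPM. All 7 sebocyte markers were under 1 TPM in every culture, as were 5 of the 9 adipocyte markers (Adipoq, Plin1, Cidec, Lep and Cfd). Keratinocyte markers summed to 2.62 to 8.88 TPM and endothelial markers to 3.02 to 4.44 TPM. Markers of other cells were not even: skeletal muscle markers summed to 451 and 345 TPM in M1 and M2 against at most 173 TPM in the WT cultures, and glial and melanocyte markers summed to 138 and 140.2 TPM in M1 and M2 against 23.3 to 32.1 TPM in the WT cultures. In M3 and M4 the glial and melanocyte sums were 49.1 and 36.6 TPM, also above every WT culture. Their muscle sums, 112 and 70.5 TPM, were not. In M5 to M7 the glial and melanocyte sums were 24.4 to 30.6 TPM, within the WT range. Fbn1, the gene that carries the allele, averaged 542 ± 50.2 TPM in G234D and 491 ± 42.8 TPM in WT cultures of set 1 (SD, n = 4 each), and its difference over both sets was 0.15 (SE 0.058, adjusted p = 0.742); a change of 1 residue is not read from such values.

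All 30 genes were expressed in every culture, the lowest of them at percentile 69.5 of all genes by mean level. Their means over the 13 cultures ran from 12.4 TPM for Tm7sf2, a sterol reductase, to 739.7 TPM for Scd2, a stearoyl-CoA desaturase. Scd2 stood first, followed by Fdps, which makes farnesyl diphosphate, at 388 TPM, Hmgcs1, the HMG-CoA synthase, at 237 TPM, Acly, the citrate lyase that supplies cytosolic acetyl-CoA, at 216 TPM and Cyp51, the lanosterol demethylase, at 186 TPM. Within the mevalonate arm the order of mean levels was Fdps, Hmgcs1, Idi1, the isopentenyl diphosphate isomerase (107 TPM), Acat2 (89.6 TPM), Mvd (71.1 TPM), Mvk (56.7 TPM) and Pmvk (39.9 TPM). Of the genes from squalene on, Sqle, the squalene epoxidase, averaged 142 TPM, Msmo1, a methylsterol oxidase, 143 TPM, Fdft1, squalene synthase, 73.7 TPM, and Lss, lanosterol synthase, 55.2 TPM. Nsdhl averaged 60.7 TPM, Sc5d 53.9 TPM, Ebp 48.3 TPM, Hsd17b7 33.8 TPM and Dhcr7 33.1 TPM. The ranges of the mevalonate arm and of the later steps thus overlapped. Among the regulators Srebf2 averaged 141 TPM, Insig1 128 TPM, Srebf1 85.1 TPM, Scap 49.0 TPM and Insig2 31.6 TPM, and Stard4 averaged 26.4 TPM. Among the fatty acid genes Scd1 averaged 133 TPM, Fasn 93.6 TPM, Acaca 33.1 TPM and Elovl6 31.8 TPM. The highest culture exceeded the lowest by 1.23 times for Scd2, the least variable of the 30, and by 2.15 times for Tm7sf2, the most variable. Mean levels of neighbours in these orders, such as Sqle, Msmo1 and Srebf2, differed by less than their spread over cultures. Fdft1, Cyp51 and Srebf1 share exon sequence with a protein-coding gene on the opposite strand in GENCODE M21, and whether strand was used in counting is not given in the sources used here. Fdps and Tm7sf2 share exons with another annotated protein-coding gene on their own strand, and how reads of the related genes Scd1 and Scd2 were assigned is likewise not given.

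**Figure D1:**
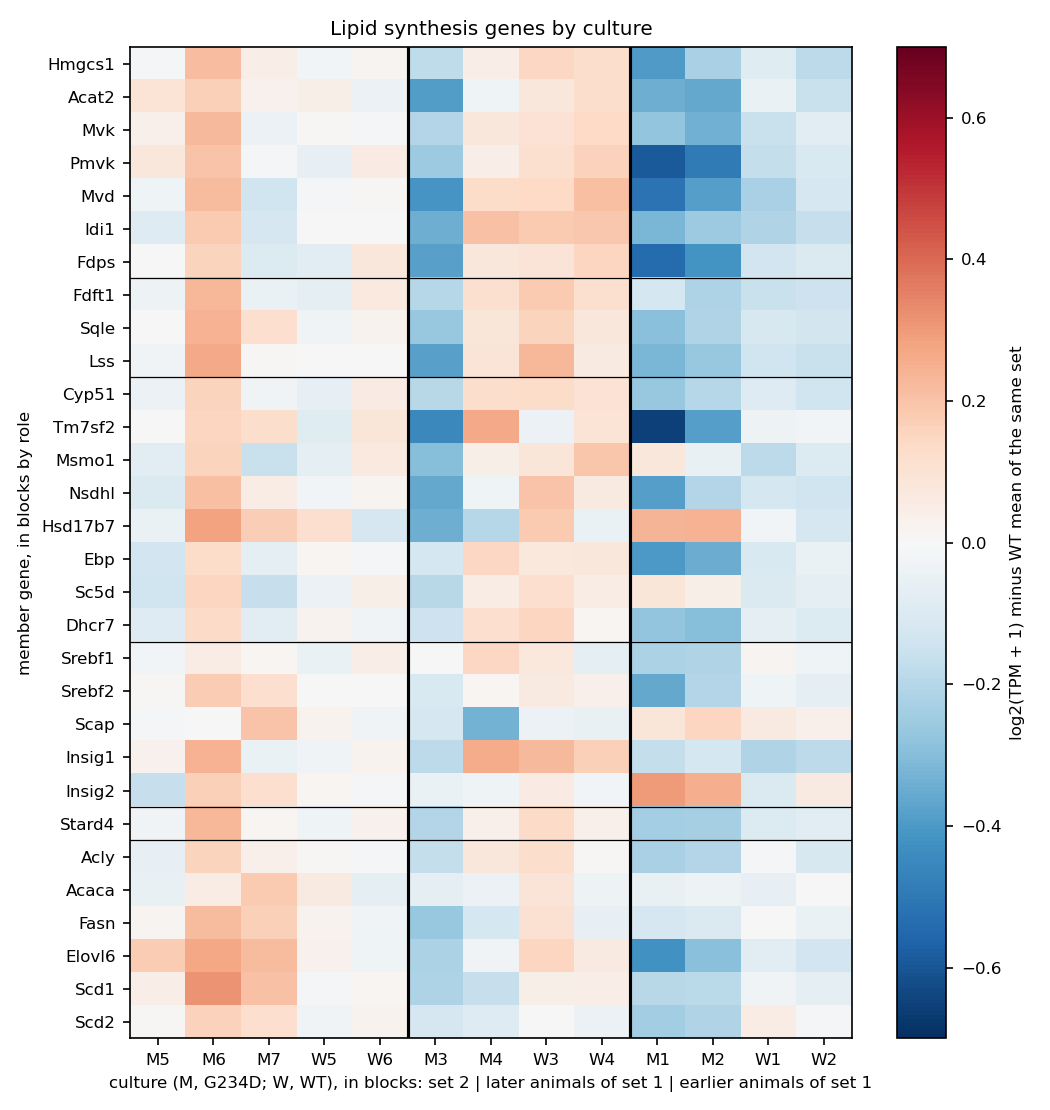
Each cell is the log2(TPM + 1) of 1 gene in 1 culture minus the mean of the WT cultures of its set, with red above and blue below that mean; rows are the 30 genes in blocks by role, and columns run from set 2 through the later to the earlier animals of set 1, with G234D (M) before WT (W) in each block. M1 is below that mean for 25 of 30 genes, M2 for 26 and M3 for all 30, M6 is above it for 29 and M4 for 20. The earlier WT cultures W1 and W2 are themselves below it for 27 genes each. Against the WT mean of its own animal group M4 is below for 22 genes.

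The stretch before the start of the 5 genes that passed a test in any comparison below is shown, since SREBP is known to act on promoters of sterol genes together with the factors NF-Y and Sp1. The sequences are from RefSeq on GRCm38.p6, run 5′ to 3′ on the gene's strand, cover at most 250 bases before the RefSeq start and leave out any base in an annotated exon. Capitals mark CCAAT, the core of the NF-Y site, on either strand (ATTGG when read on the other), and in Hmgcs1 also TCACNCCAC, a form of the sterol regulatory element.
Hmgcs1, chr13:119690101-119690350, plus strand: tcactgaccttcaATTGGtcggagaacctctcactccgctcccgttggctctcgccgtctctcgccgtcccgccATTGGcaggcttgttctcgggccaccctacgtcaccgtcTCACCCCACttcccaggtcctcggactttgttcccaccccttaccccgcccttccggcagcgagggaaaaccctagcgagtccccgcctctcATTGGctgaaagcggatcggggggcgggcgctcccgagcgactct
Mvk, chr5:114444061-114444268, plus strand: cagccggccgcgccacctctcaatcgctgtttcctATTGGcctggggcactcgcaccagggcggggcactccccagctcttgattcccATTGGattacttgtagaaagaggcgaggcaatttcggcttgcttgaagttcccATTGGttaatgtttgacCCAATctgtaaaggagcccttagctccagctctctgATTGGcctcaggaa
Pmvk, the more upstream of 2 promoters in the table, chr3:89454291-89454540, plus strand: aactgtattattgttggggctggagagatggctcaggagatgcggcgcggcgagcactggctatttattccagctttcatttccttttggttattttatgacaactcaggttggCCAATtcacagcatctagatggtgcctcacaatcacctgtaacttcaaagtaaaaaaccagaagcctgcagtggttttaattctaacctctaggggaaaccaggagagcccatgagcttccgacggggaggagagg
Ebp, chrX:8193513-8193762, minus strand: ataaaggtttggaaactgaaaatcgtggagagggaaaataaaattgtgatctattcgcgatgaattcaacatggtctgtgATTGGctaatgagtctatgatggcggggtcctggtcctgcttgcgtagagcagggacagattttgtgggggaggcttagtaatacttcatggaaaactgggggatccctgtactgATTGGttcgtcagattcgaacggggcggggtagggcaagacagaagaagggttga
Hsd17b7, chr1:169969242-169969408, minus strand: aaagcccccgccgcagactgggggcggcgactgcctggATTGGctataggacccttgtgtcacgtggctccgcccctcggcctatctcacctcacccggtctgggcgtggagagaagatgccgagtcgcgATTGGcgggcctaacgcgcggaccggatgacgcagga
CCAAT occurred 5 times in the printed stretch of Mvk, 3 times in that of Hmgcs1, 2 times in those of Ebp and Hsd17b7 and 1 time in that of Pmvk. The TCACNCCAC site of Hmgcs1 began 137 bases before the start. Of the 30 genes, 24 had a promoter in the table, with 32 promoters in all; Fdft1, Stard4, Sqle, Scd2, Scd1 and Fdps had none there. Searched on both strands over 250 bases, CCAAT was found in 20 of the 32 promoters of the members (62.5%), which belong to 19 of the 24 genes, and in 33.85% of all 32851 promoters. GGGCGG, the core of the Sp1 site, was found in 23 of the 32 (71.9%), of 20 of the 24 genes, and in 32.742% of all promoters. TCACNCCAC was found in 1 of the 32 (3.12%) and in 1.053% of all promoters. No site of 1 motif overlapped a site of another in the members' promoters. These are matches of letters, and binding was not measured.

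The first comparison asked whether G234D fibroblasts differ from WT fibroblasts in these genes over both sets. Most differences were small. In the G234D cultures 28 of the 30 genes averaged slightly below the WT cultures, by a median of −0.067 on the log2(TPM + 1) scale, but none passed the test. The lowest members were Fdps (−0.19, SE 0.10), Mvd, the mevalonate diphosphate decarboxylase (−0.18, SE 0.12), and Pmvk, the phosphomevalonate kinase (−0.17, SE 0.11). Over all genes tested the median difference was 0.011 and 43.4% were below 0. No gene of 11942 was called at an adjusted p under 0.05 in this limma fit (0% called), against 769 at an unadjusted p under 0.05, which is 6.44%; of the 30 genes, 0 reached an unadjusted p under 0.05. The smallest adjusted p among the 30 was 0.865, for Fdps, and Scap, Insig1, Sc5d and Acaca lay within 0.02 of 0. For 25 of the 30 genes the 95% interval stayed inside a 1.25-fold change up or down (81.1% of all genes) and for all 30 inside a 1.5-fold change (94.6% of all genes). In 0 of the 30 genes did all 7 G234D cultures lie under the mean of the WT cultures beside them, as they did for 1.37% of genes. In bulk samples a lower share of a cell type and less RNA per cell cannot be told apart. Differences on this scale slightly understate those of the lowest genes.

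The 4 genes with the smallest p in this fit show where the difference lay. Fdps stood at 424, 473 and 397 TPM in G234D and 402 and 448 TPM in WT cultures of set 2. In the later animals Fdps stood at 307 and 422 TPM in G234D and 425 and 443 TPM in WT cultures. The earlier animals had 275 and 298 TPM in G234D and 364 and 372 TPM in WT cultures. The genotypes of Fdps overlapped in set 2, and within each animal group of set 1 both G234D cultures were below both WT cultures. Acat2, the thiolase that joins acetyl-CoA units, stood at 87.8, 92.5 and 83.9 TPM in G234D and 84.4 and 79.9 TPM in WT cultures of set 2. For the later animals, Acat2 stood at 76.5 and 98.6 TPM in G234D and 106 and 109.7 TPM in WT cultures. Among the earlier animals it stood at 79.3 and 78.3 TPM in G234D and 97.2 and 90.2 TPM in WT cultures. Acat2 was likewise lower in G234D within each animal group and overlapped in set 2, through M7. Nsdhl, a dehydrogenase that removes methyl groups from sterols, stood at 55.1, 68.7 and 61.2 TPM in G234D and 58.2 and 60.0 TPM in WT cultures of set 2. Nsdhl stood in the later animals at 51.1 and 64.4 TPM in G234D and 75.7 and 68.6 TPM in WT cultures. In the earlier animals it stood at 50.1 and 56.8 TPM in G234D and 60.2 and 59.5 TPM in WT cultures. Nsdhl overlapped in set 2, where M5 was lowest and M6 highest of the 5 cultures, and was lower in G234D within each animal group. Mvd stood at 79.6, 94.9 and 73.8 TPM in G234D and 81.0 and 81.8 TPM in WT cultures of set 2. In the later animals Mvd stood at 52.2 and 76.7 TPM in G234D and 77.0 and 81.2 TPM in WT cultures. The earlier animals had 48.6 and 53.2 TPM in G234D and 59.5 and 64.3 TPM in WT cultures. Mvd followed the same order, with its widest gap between cultures of a kind, M3 and M4, in the later animals. For all 4 genes M4 lay above both earlier WT cultures, so that over set 1 as a whole the genotypes overlapped. Their differences over both sets were −0.14 (SE 0.079) for Acat2 and −0.13 (SE 0.083) for Nsdhl, with adjusted p of 0.872 for Acat2, 0.885 for Nsdhl and 0.886 for Mvd. Leaving out M1 and M2, the cultures highest in muscle and glial markers, brought the median of the 30 genes to −0.0095, with 22 below 0. That fit had no animal group term, so that in set 1 it set later G234D cultures against WT cultures of both animal groups. The change of the median can thus not be told apart from the animal group. Within the later animals alone the median genotype difference was −0.19, with 29 of 30 genes below 0. It came mostly from M3: against the mean of the later WT cultures the median was −0.32 in M3, with 30 genes below 0, and −0.046 in M4, with 22. The share of all genes below 0 was not taken for this contrast. The part of the muscle and glial markers in the result was not tested.

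Within set 1, with the animal group as a term, 29 of the 30 genes averaged lower in G234D cultures, with a median of −0.17 where 50.2% of all genes were below 0. No member passed the test, as 1 of 11905 genes did (0.0084% called), and 18 members were lower at an unadjusted p under 0.05, as 4.74% of genes were. In the mevalonate arm 6 of 7 reached that level, with Pmvk at −0.32 (SE 0.070, adjusted p = 0.215), Fdps at −0.31 (SE 0.088, adjusted p = 0.319) and Acat2 at −0.28 (SE 0.072, adjusted p = 0.273). From squalene to lanosterol 2 of 3 did, from lanosterol to cholesterol 3 of 8 (Nsdhl, Ebp and Dhcr7), in SREBP control only Srebf2 of 5, and among the fatty acid genes 5 of 6, all but Acaca, the acetyl-CoA carboxylase. Insig2 was the 1 member with a positive difference (0.12, SE 0.076). Over all 4 against 4 cultures the genotypes did not overlap for Fasn, the fatty acid synthase, Scd1 and Scd2, each lower in G234D cultures, as for 2.19% of genes. Without M4 in the fit, Pmvk (−0.40) and Fdps (−0.42) were called, each at an adjusted p of 0.0392, and leaving out any other culture called 0 members.

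Within set 2 the signs were the other way for most genes. G234D cultures averaged higher for 25 of the 30 genes and lower for Idi1, Msmo1, Ebp, Sc5d and Dhcr7, with a median of 0.068 against 0.030 for all genes, of which 37.6% were below 0. No member was called, as 1 of 12060 genes was (0.00829% called). Elovl6, which lengthens palmitate, had the smallest p (0.22, SE 0.069, adjusted p = 0.722), followed by Scd1 (0.19, SE 0.075, adjusted p = 0.750) and Fasn (0.14, SE 0.068, adjusted p = 0.774). For Elovl6, Scd1 and Srebf2 all G234D cultures lay above both WT cultures, as for 16.6% of genes, and for 0 members did they lie below both, as for 7.02%. At an unadjusted p under 0.05, 2 members were higher (Elovl6 and Scd1), as 4.23% of genes were. The count below 0 rested on M6: without M6 it was 17 of 30 with a median of −0.0048, and it was 1 without M5, 2 without M7, 8 without W5 and 5 without W6. Numbers of replicates in set 2 are small (n = 3 and n = 2), and the 95% interval of Fdps, for instance, ran from −0.16 to 0.20.

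The difference between the sets was itself tested. The genotype difference of set 2 minus that of set 1 was above 0 for 28 of the 30 genes, with a median of 0.25 against 0.033 for all genes, of which 40.9% were below 0. No member and no gene of 11942 was called (0% called), and 6 members reached an unadjusted p under 0.05, all above 0, as 3.77% of genes did. The smallest p were those of 4 fatty acid genes: Scd1 differed by 0.38 (SE 0.083, adjusted p = 0.527), Elovl6 by 0.46 (SE 0.13, adjusted p = 0.840), Scd2 by 0.26 (SE 0.081, adjusted p = 0.840) and Fasn by 0.29 (SE 0.090, adjusted p = 0.841). Acat2 (0.38, SE 0.13) and Srebf2 (0.27, SE 0.11) were the others. For Acat2, Fasn, Elovl6, Scd1 and Scd2, 5 of 30 genes, every G234D culture of set 2 lay above and every G234D culture of set 1 below the WT mean of its set, as for 3.19% of all genes.

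**Figure D2:**
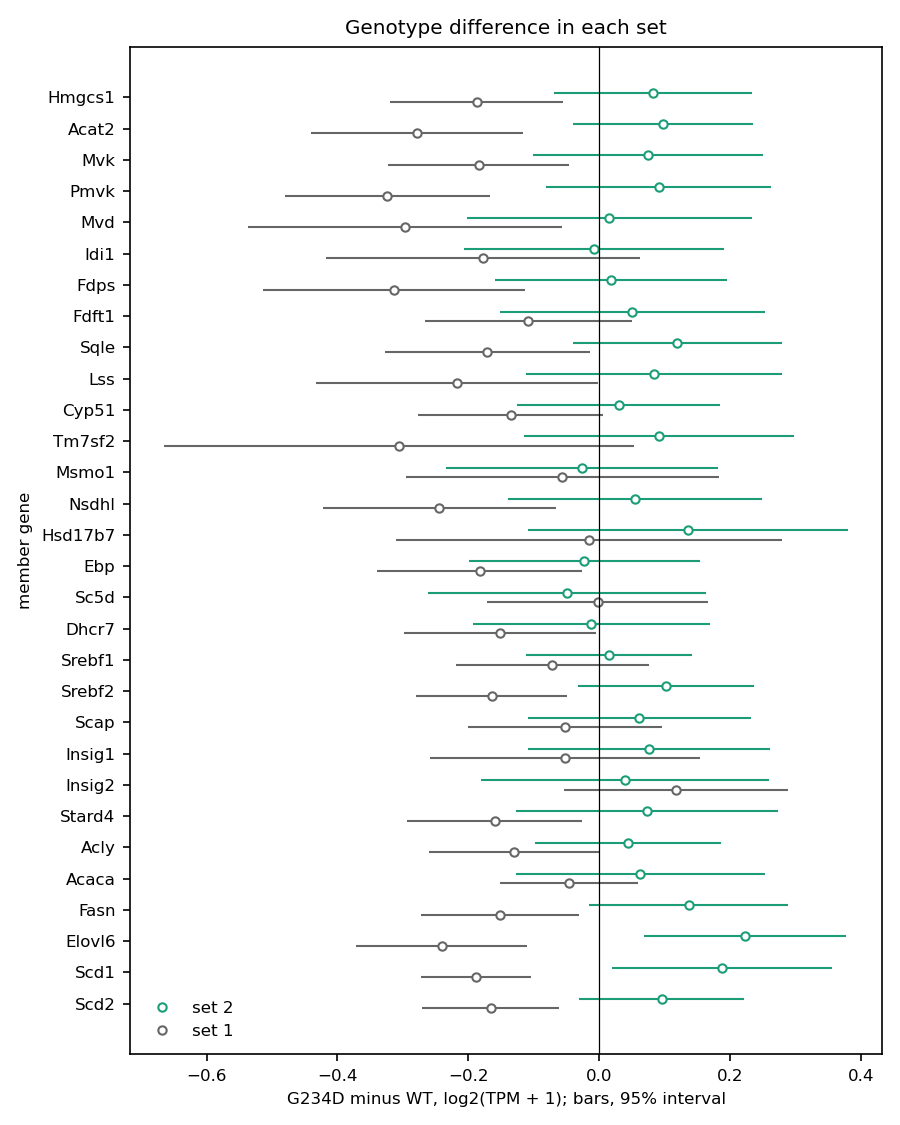
Points are the difference of G234D minus WT on the log2(TPM + 1) scale for each of the 30 genes, green in set 2 (3 against 2 cultures) and grey in set 1 (4 against 4, with the animal group as a term), and bars are 95% intervals from limma. Set 1 lies below 0 for 29 genes and set 2 above 0 for 25; open circles mark that none passed an adjusted p of 0.05.

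The cultures behind the fatty acid genes are these. Fasn stood at 80.5, 92.6 and 89.3 TPM in G234D and 80.6 and 78.1 TPM in WT cultures of set 2. For the later animals, Fasn stood at 87.0 and 95.8 TPM in G234D and 113 and 101 TPM in WT cultures. Among the earlier animals it stood at 96.2 and 97.6 TPM in G234D and 104 and 101 TPM in WT cultures. In set 1 all 4 G234D cultures lay below all 4 WT cultures for Fasn, and in set 2 M5 fell between the WT cultures. Scd2 stood at 692, 771 and 746 TPM in G234D and 675 and 701 TPM in WT cultures of set 2. Scd2 stood in the later animals at 733 and 749 TPM in G234D and 797 and 775 TPM in WT cultures. In the earlier animals it stood at 672 and 689 TPM in G234D and 826 and 790.1 TPM in WT cultures. Scd2 too was apart over the whole of set 1, lower in G234D, and overlapped in set 2. Scd1 and Elovl6 were chosen for the same account after their values were seen. Scd1 stood at 113, 136 and 126 TPM in G234D and 108 and 110.5 TPM in WT cultures of set 2. In the later animals Scd1 stood at 131 and 136 TPM in G234D and 156 and 157 TPM in WT cultures. The earlier animals had 133 and 133 TPM in G234D and 149 and 145 TPM in WT cultures. Scd1 did not overlap in either set, being higher in G234D in set 2 and lower in set 1. Elovl6 stood at 28.4, 30.4 and 29.4 TPM in G234D and 25.6 and 24.5 TPM in WT cultures of set 2. For the later animals, Elovl6 stood at 31.8 and 36.6 TPM in G234D and 41.4 and 38.9 TPM in WT cultures. Among the earlier animals it stood at 27.5 and 30.2 TPM in G234D and 35.3 and 33.8 TPM in WT cultures. Elovl6 was apart in set 2, higher in G234D, and lower within each animal group of set 1, where M4 alone passed the earlier WT cultures.

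The regulators are given in the same way. Srebf1 stood at 91.1, 95.5 and 93.0 TPM in G234D and 89.1 and 95.4 TPM in WT cultures of set 2. Srebf1 stood in the later animals at 82.0 and 90.7 TPM in G234D and 86.3 and 78.5 TPM in WT cultures. In the earlier animals it stood at 70.3 and 70.7 TPM in G234D and 83.0 and 80.4 TPM in WT cultures. For Srebf1 the genotypes were apart in the earlier animals and overlapped elsewhere. Srebf2 stood at 136, 153 and 147 TPM in G234D and 135 and 136 TPM in WT cultures of set 2. In the later animals Srebf2 stood at 138 and 150.3 TPM in G234D and 156 and 152 TPM in WT cultures. The earlier animals had 116 and 129 TPM in G234D and 146 and 142 TPM in WT cultures. For Srebf2 they were apart in all 3 blocks, higher in G234D in set 2 and lower in both animal groups. The gap in set 2 was very narrow, with M5 and W6 both at 136 TPM when rounded. Insig1, which is itself a target of SREBP, stood at 123, 143 and 117 TPM in G234D and 119 and 123 TPM in WT cultures of set 2. For the later animals, Insig1 stood at 115 and 157 TPM in G234D and 154 and 147 TPM in WT cultures. Among the earlier animals it stood at 117 and 120.4 TPM in G234D and 113 and 115 TPM in WT cultures. Its 2 later G234D cultures lay on either side of the later WT cultures, and its earlier G234D cultures lay just above the earlier WT cultures. Over both sets the differences were −0.039 (SE 0.056) for Srebf1, −0.065 (SE 0.063) for Srebf2, −0.0099 (SE 0.070) for Scap, −0.0043 (SE 0.094) for Insig1 and 0.088 (SE 0.070) for Insig2, with adjusted p from 0.904 to 0.999.

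**Figure D3:**
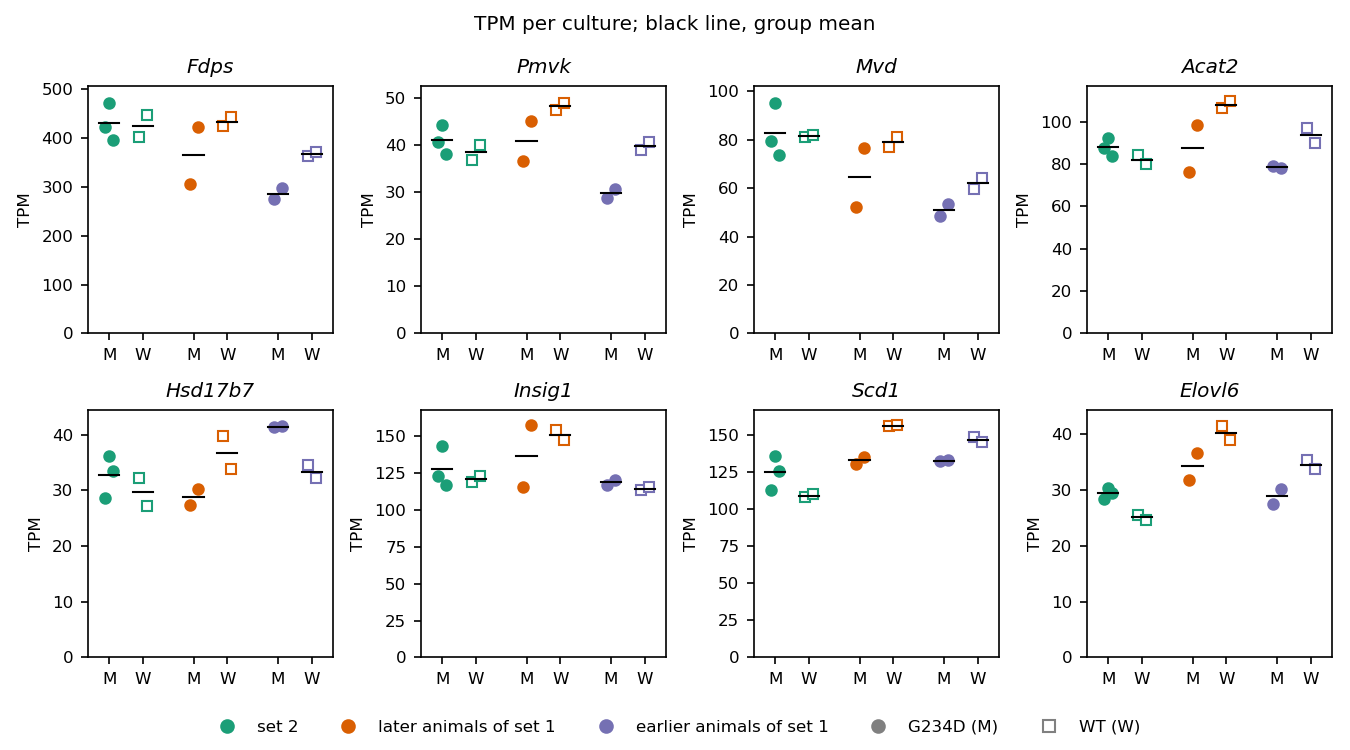
TPM of 8 genes in each of the 13 cultures, on linear axes from 0; filled circles are G234D (M) and open squares WT (W), colours give set 2, the later and the earlier animals of set 1, and the black line is the mean of each group. Fdps, Pmvk, Mvd and Acat2 are lower in G234D within both animal groups of set 1 and overlap in set 2, Hsd17b7 has its highest values in M1 and M2, and Scd1 and Elovl6 are higher in G234D in set 2.

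The animal groups of set 1 gave the calls. In the later animals, compared with the earlier ones at equal genotype, Pmvk rose by 0.36 (SE 0.070, adjusted p = 0.0272), Hmgcs1 by 0.26 (SE 0.059, adjusted p = 0.0351), Mvk, the mevalonate kinase, by 0.24 (SE 0.061, adjusted p = 0.0468) and Ebp, a sterol isomerase, by 0.27 (SE 0.070, adjusted p = 0.0498). These 4 of 30 were all higher, where 7.14% of 11905 genes were called in either direction and 2.79% were called higher. In all 26 of 30 members were above 0, with a median of 0.19 against −0.022 for all genes, of which 56.7% were below 0, and 20 members were higher at an unadjusted p under 0.05, as 9.9% of genes were. All 7 genes of the mevalonate arm and all 3 from squalene to lanosterol were among those 20, beside Cyp51, Nsdhl, Ebp and Dhcr7 of the later steps, Srebf1, Srebf2 and Insig1 of the regulators, Stard4, Acly and Elovl6. Elovl6 missed the threshold (0.22, SE 0.058, adjusted p = 0.0503), and the other fatty acid genes ranged from −0.017 for Fasn to 0.15 for Acly. Scap, Insig2, Hsd17b7 and Fasn were the 4 below 0, and Scap (−0.22, SE 0.066, adjusted p = 0.0743) was the 1 member with every later culture apart from every earlier one, lower in the later animals, as for 9.77% of genes, and 0 were wholly higher, as for 5.7%.

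Pmvk stood at 36.6, 45.2, 47.5 and 49.1 TPM in the later cultures M3, M4, W3 and W4, and at 28.9, 30.8, 38.9 and 40.7 TPM in the earlier cultures M1, M2, W1 and W2. In set 2 it stood at 40.8, 44.3 and 38.3 TPM in G234D and 37.0 and 40.1 TPM in WT cultures. Within each genotype its later cultures were above its earlier ones, and M3 alone lay below the earlier WT cultures. Hmgcs1 stood at 215, 252, 269.6 and 265 TPM in M3, M4, W3 and W4, and at 185, 208, 229 and 214 TPM in M1, M2, W1 and W2. Its set 2 cultures held 237, 278 and 248 TPM in G234D and 237 and 242 TPM in WT. The later and earlier cultures of Hmgcs1 were apart within each genotype and overlapped across genotypes, again through M3. Mvk stood at 48.7, 59.6, 60.3 and 62.0 TPM in M3, M4, W3 and W4, and at 46.2, 44.3, 50.3 and 53.2 TPM in M1, M2, W1 and W2. Ebp stood at 43.3, 52.3, 49.9 and 49.9 TPM in M3, M4, W3 and W4, and at 35.5, 36.9, 43.8 and 45.7 TPM in M1, M2, W1 and W2. Both had the same order, with M3 below the earlier WT cultures. In set 2 Mvk ranged from 58.8 to 71.0 TPM in G234D and from 60.2 to 60.8 TPM in WT cultures, and Ebp from 49.6 to 59.7 TPM in G234D and from 54.1 to 55.1 TPM in WT cultures.

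These calls stood close to the threshold. The number of members called was 12 without M3, 2 without W2, 1 without M4, W3 or W4 and 0 without M1, M2 or W1, and it was 0 with no filter on low values. Of 14 alternatives, Pmvk lost its call in 4, Hmgcs1 in 8, Mvk in 9 and Ebp in 11; the differences themselves stayed above 0 in all of them, and that of Pmvk was lowest, at 0.28, without M4. Within the WT cultures of set 1, both later were above both earlier in 22 of 30 genes, as for 15.6% of genes, and below both in 1, Scap, as for 30.8%. Within the G234D cultures they were above in 13 of 30, as for 28.7% of genes, and below in 4 (Scap, Insig2, Hsd17b7 and Fasn), as for 32.7%. Adipocyte markers summed to 82.2 to 159 TPM in the later and 52.7 to 62.4 TPM in the earlier cultures. Of the markers tested, 2 of 4 adipocyte and 2 of 10 fibroblast markers were called higher in the later animals and 1 of 6 macrophage markers was called lower. Of all genes, 7.14% were called in either direction and 2.79% were called higher. The other 5 adipocyte markers, Adipoq, Plin1, Cidec, Lep and Cfd, were under 1 TPM in every culture and were not tested. Skeletal muscle markers summed to 70.5 to 173 TPM in the later and 137 to 451 TPM in the earlier cultures, and all 8 tested were below 0 (−1.76 to −0.54), with 0 called. Glial and melanocyte markers summed to 29.5 to 49.1 TPM in the later and 23.4 to 140.2 TPM in the earlier cultures, with 6 of 7 tested below 0 and 0 called. The proliferation markers summed to 666 to 726 TPM in the later and 667 to 804 TPM in the earlier cultures. The part of these cells in the difference was not tested, and neither were any other differences between the animal groups in handling or date, which cannot be told apart from the grouping.

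**Figure D4:**
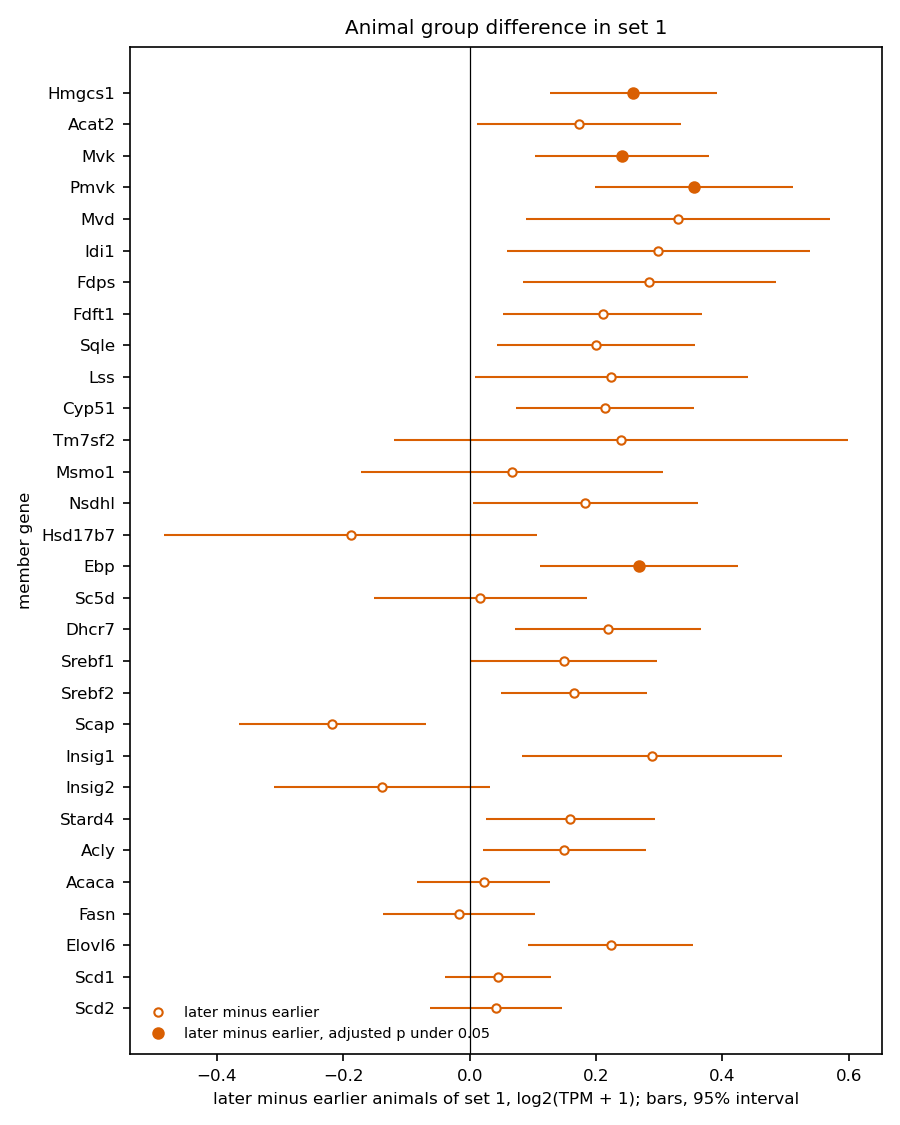
Points are the difference of the later minus the earlier animals of set 1 on the log2(TPM + 1) scale, with genotype as a term (4 against 4 cultures), and bars are 95% intervals from limma; filled points passed an adjusted p of 0.05. Hmgcs1, Mvk, Pmvk and Ebp are filled, 26 of 30 genes lie above 0, and Scap lies lowest.

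Whether the genotype difference differed between the later and the earlier animals was tested in the same cultures. Among 11905 genes 334 were called (2.81% called), and 1 of the 30 members was, in the lower direction in which 1.87% of genes were called. It was Hsd17b7, the reductase of sterol ketones on the way from lanosterol to cholesterol. Hsd17b7 stood at 27.4 and 30.3 TPM in later G234D and 39.8 and 33.8 TPM in later WT cultures, and at 41.3 and 41.6 TPM in earlier G234D and 34.5 and 32.2 TPM in earlier WT cultures. G234D cultures were thus below both WT cultures in the later animals and above both in the earlier animals, with no overlap in either. The genotype difference of the later minus that of the earlier animals was −0.64 (SE 0.12, adjusted p = 0.0302). It stayed below 0 in all 14 alternatives and lost its call in 6 of them: with no filter (adjusted p = 0.0709) and without W1 (0.0823), W2 (0.123), W3 (0.0683), M1 (0.108) or M2 (0.0613). In set 2 Hsd17b7 stood at 28.7, 36.3 and 33.6 TPM in G234D and 32.3 and 27.3 TPM in WT cultures, which overlapped. The next smallest adjusted p was that of Insig2 (−0.35, SE 0.10, adjusted p = 0.0922), and at an unadjusted p under 0.05 Msmo1, a sterol oxidase, Sc5d, a sterol desaturase, and Scap were also below 0, as 10.1% of genes were, while Srebf1 (0.28, SE 0.095) and Scd2 (0.16, SE 0.066) were above 0, as 10% of genes were. In all 19 of 30 members were below 0, against 46.4% of genes.

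In the earlier animals 22 of the 30 genes were lower in both G234D than in both WT cultures, as for 30.2% of genes, and 6 were higher in both, as for 27.6% of genes: Hsd17b7, Insig2, Insig1, Msmo1, Sc5d and Scap. In the later animals 19 were lower in both G234D cultures, as for 18.4% of genes, and 0 were higher in both, as for 21.3%. The median genotype difference of the 30 genes was −0.19 in the later and −0.15 in the earlier animals. M1 and M2, in which the 6 genes stood higher, also had higher sums of markers of other cells. Skeletal muscle markers summed to 451 and 345 TPM there against 166 and 137 TPM in W1 and W2. Macrophage markers summed to 60.4 and 83.9 TPM against at most 36.0 TPM in W1 and W2. The part of those cells was not tested.

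Single cultures of a genotype differed from each other in most of the 30 genes. The summed level of the 18 sterol enzymes was 1848, 2145 and 1836 TPM in M5, M6 and M7 and 1839 and 1931 TPM in W5 and W6. In set 1 it was 1547 and 1993 TPM in M3 and M4 and 2066 and 2060 TPM in W3 and W4, and it was 1515 and 1577 TPM in M1 and M2 and 1730 and 1728 TPM in W1 and W2. M3 therefore lay near the earlier G234D cultures and M4 near the later WT cultures. M3 was below both later WT cultures in 29 of 30 genes, as for 29.5% of genes, and above both in 0, as for 45.8%, with a median of −0.32 from their mean, while M4 was below both in 19, as for 40.8% of genes, and above both in 5, as for 32.1%, with a median of −0.046. M4 was above M3 in 29 of 30 genes, as for 38.4% of genes, by a median of 0.26. Scap was the exception, where 61.6% of genes were lower in M4, at 38.0 TPM in M4 and 44.2 TPM in M3. In set 2, M6 was above both M5 and M7 in 28 of 30 genes, as for 32.4% of genes, and above both WT cultures in 28, as for 43.7%. It was below both of its pair in 0 genes either time, as for 33% and 26.7% of genes. Acaca and Scap were the 2 genes in which it was not above M7. These counts describe single cultures, and members of a pathway are not independent of each other.

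**Figure D5:**
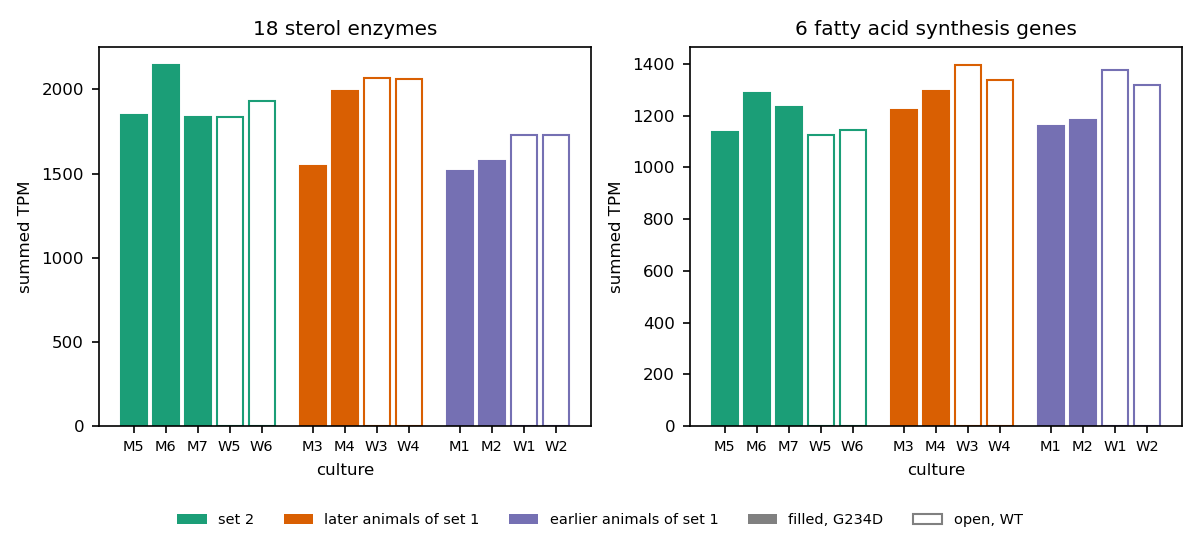
Bars, from 0, are the summed TPM of the 18 sterol enzymes (left) and of the 6 fatty acid genes (right) in each culture, filled for G234D (M) and open for WT (W), in set 2, the later and the earlier animals of set 1. The sterol sum is lowest in M1, M2 and M3 and highest in M6, and the fatty acid sum is lower in each G234D than in each WT culture of set 1.

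The 6 fatty acid genes summed to 1138, 1288 and 1233 TPM in M5, M6 and M7 and 1126 and 1145 TPM in W5 and W6. In set 1 they summed to 1222 and 1295 TPM in M3 and M4 and 1396 and 1337 TPM in W3 and W4, and to 1159 and 1184 TPM in M1 and M2 and 1377 and 1319 TPM in W1 and W2. All 4 G234D cultures of set 1 thus lay below all 4 WT cultures, which was not so of the sterol enzymes. Scd2, at 672 to 826 TPM in set 1, was the largest part of each sum. Taken singly, Fasn, Scd1 and Scd2 were apart over set 1, and Acly, Acaca and Elovl6 overlapped between the genotypes. Across sets, the levels of 2 members were apart: Acaca ranged from 26.8 to 32.0 TPM in set 2 and from 34.8 to 38.8 TPM in set 1, and Dhcr7, the reductase that ends the pathway, from 35.5 to 41.6 TPM in set 2 and from 25.6 to 35.3 TPM in set 1. Over all genes 10.4% were wholly lower and 6.82% wholly higher in set 2, and no test was made of set levels.

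Neighbouring genes of lipid handling were read from 4 lists. Of 16 tested genes of sterol uptake, storage and efflux, 12 were above 0 in G234D over both sets and 0 were called. Ch25h, which makes a side-chain oxysterol, had the largest difference (0.49, SE 0.11, adjusted p = 0.670), and it stood at 24.9, 24.5 and 27.3 TPM in G234D and 18.1 and 23.0 TPM in WT cultures of set 2. In set 1 Ch25h stood at 16.1 and 19.0 TPM in later G234D, 14.4 and 11.4 TPM in later WT, 17.8 and 14.8 TPM in earlier G234D and 9.48 and 8.49 TPM in earlier WT cultures, so that all G234D cultures lay above all WT cultures of their own set, as for 16.6% of genes in set 2 and 1.96% in set 1. Lipa, the lysosomal acid lipase, differed by 0.19 (SE 0.046) and Npc1, the lysosomal sterol exporter, by 0.11 (SE 0.049). Of 20 other sterol enzymes and regulators 10 were above and 10 below 0, with Erlin1 at 0.16 and Syvn1 at 0.10. Of 12 genes of isoprenoid use 10 were above 0, with Ggps1, Fntb and Icmt between 0.063 and 0.086. Of 26 tested other fatty acid genes 11 were above 0, with Acsl1 at 0.14, Slc25a1 at −0.078 and Acss2, the acetyl-CoA synthetase, at −0.19. Both directions were thus found among these lists, and none of their genes was called over both sets. Between the animal groups, later against earlier, 6 of the 73 genes of these lists that were tested were called, where 7.14% of all genes were. Acss2 (0.46, adjusted p = 0.0333) and Mid1ip1 (0.24, adjusted p = 0.0408) were the 2 that rose. Hacd1 (−0.38, adjusted p = 0.0255), Me1 (−0.30, adjusted p = 0.0371) and Icmt (−0.22, adjusted p = 0.0252) were among the 4 that fell. In the test of the genotype difference between the animal groups, 2 of the 73 were called, where 2.81% of all genes were: Mylip (1.08, adjusted p = 0.00726), a ubiquitin ligase of lipoprotein receptors, and Me1 (−0.35, adjusted p = 0.0473), the cytosolic malic enzyme.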

How the data were processed

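Gene-level tables of 13 cultures were used; libraries were made from total RNA and were directional, per the labels' protocols. The values are TPM as deposited by the authors, 1 table of 25655 genes per culture, and each sums to 1000000; the genome was mm10 per the submitters' processing notes, and no source used here names the aligner, the counter, the annotation or the use of strand in counting. TPM keeps no read totals, so depth and counting error are unknown. Values were taken to log2(TPM + 1), which understates the differences of low genes, and genes were kept at 1 TPM in at least 6 cultures (both sets), 4 (set 1) or 2 (set 2). limma 3.58.1 in R 4.3.3, with a trended prior and the robust setting, was fitted on all genes kept: genotype with set as a term over both sets, genotype with animal group in set 1, genotype in set 2, and the interactions of genotype with set and with animal group. Adjusted p values are limma's moderated tests with Benjamini-Hochberg adjustment over all genes of the fit, with a threshold of 0.05, and intervals are 95%. The fits were tested on simulated data. Labels give separate animals but no litters, dates or passages, so p-values measure the spread between these cultures.

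The members, the gene lists and the split of set 1 by animal number were chosen with earlier results of these data known. Genes given in every culture were those called in any comparison, the 4 with the smallest p over both sets, and Hmgcs1, Srebf1, Srebf2, Insig1, Fasn and Scd2. Alternatives were a pseudocount of 0.1, no filter and a filter of 10 TPM, median-of-ratios scaling, quantile normalization, no robust step, the replicate block, other terms for animal group, leaving out M1 and M2 together, and leaving out each culture in turn. Exon overlaps came from GENCODE M21 (25600 of 25655 names matched), and promoters from RefSeq on GRCm38.p6.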

Additional observations from a re-analysis of the deposited data

Results flagged for a closer look

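Values far from the rest of a group of 4 were looked for with Dixon's criterion in 60 groups, 2 for each gene, and 8 were found. The criterion is nominally set to flag about 1 in 20 groups, but each group pools later and earlier animals and the genes are not independent. The share flagged over all genes was not taken, so the count is not read as a trait of these genes. In the 4 G234D cultures of set 1, M4 stood apart above the others for Acat2 (98.6 TPM), Mvd (76.7 TPM), Idi1 (133 TPM), Cyp51 (208 TPM), Insig1 (157 TPM) and Stard4 (30.1 TPM), so that 6 of the 8 are 1 culture. M3 stood apart below the others for Fasn (87.0 TPM), and W4 stood apart from the other WT cultures of set 1 for Tm7sf2 (12.96 TPM).

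The genotype difference of Hsd17b7 differed between the later and the earlier animals of set 1 by −0.64 on the log2(TPM + 1) scale, by the interaction term of limma at an adjusted p of 0.0302; this value rests on 2 cultures a group. For 5 genes every G234D culture of set 2 lay above and every G234D culture of set 1 below the WT mean of its set, with a difference between the sets of 0.46 for Elovl6, 0.38 for Scd1, 0.38 for Acat2, 0.29 for Fasn and 0.26 for Scd2. None of the 5 passed the test of that difference, with adjusted p from 0.527 to 0.85.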

How the results depend on the processing

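No read totals are held in TPM, so what depth limits cannot be stated; set 2 has 3 against 2 cultures, and its intervals are wide. All alternatives listed could be fitted, and no scaling moved the median of all genes by 0.1 or more on the log2 scale. Across the alternatives the members below 0 numbered 22 to 29 over both sets and 25 to 29 in set 1. The share of later-against-earlier calls that were lower was 60.9%, and it was 49.0% with median-of-ratios scaling and 52.3% with quantile normalization. With the replicate block, set 1 gave 1 gene and 0 members called with a median of −0.17. Pairing by number was not shown: deviations of same-numbered cultures from their group means correlated at 0.214 to 0.314 in set 1, where 4 of 8 cultures correlated best with their own number, but the numbers also follow the animal groups. With the animal-group means removed the correlations were −0.0883 in the later and −0.0105 in the earlier animals, and in set 2 they were −0.155 and 0.0138.

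Signs over both sets turned with the replicate block for Sc5d (0.00043) and Insig1 (0.011), and without M1 and M2 for Hmgcs1 (0.0056), Mvk (0.0031), Sqle (0.0094), Hsd17b7 (−0.078), Srebf1 (0.045), Srebf2 (0.023), Insig1 (0.056), Insig2 (−0.0025), Acaca (0.0026) and Elovl6 (0.041). In set 1, 0 genes were called with no filter or with no animal group term, and Sc5d was 0.0017 with quantile normalization. In set 2, 0 genes were called with no filter or a filter of 10 TPM and 21 with the replicate block; members below 0 were 9 with median-of-ratios scaling and 2 with the replicate block. Between sets, 1 member was below 0 with the replicate block and 1 gene was called with animal group as a covariate. Later against earlier, no filter left 269 genes and 0 members called, and Fasn was 0.011 with median-of-ratios scaling and 0.019 with quantile normalization. For the animal group by genotype test, no filter left 139 genes and 0 members. The cause was not tested.

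Leaving out 1 culture at a time gave these lowest and highest values. Over both sets they were −0.046 and 0.049 for Scap, −0.0060 and 0.11 for Hsd17b7, −0.061 and 0.045 for Insig1, −0.080 and 0.0033 for Msmo1, −0.051 and 0.016 for Sc5d and −0.034 and 0.017 for Acaca. In set 1 they were 0 and 8 genes called, 0 and 2 members called, −0.12 and 0.053 for Msmo1, −0.099 and 0.095 for Hsd17b7, −0.042 and 0.078 for Sc5d, −0.12 and 0.058 for Insig1 and −0.091 and 0.015 for Scap. In set 2 they were 1 and 17 members below 0 and 0 and 14 genes called. Between sets they were 0 and 1 gene called and 1 and 3 members below 0. Later against earlier they were 36 and 883 genes called, 0 and 12 members called, −0.027 and 0.097 for Sc5d, −0.063 and 0.024 for Fasn and −0.010 and 0.042 for Acaca. For the animal group by genotype test they were 46 and 674 genes called, 0 and 5 members called, 9 and 24 members below 0 and medians of −0.14 and 0.11.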
